A study of Aquilegia coerulea with 32 samples.

Results

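*AqWUS* (*Aqcoe2G057900*) and *AqUTL1* (*Aqcoe1G333200*) are 2 of the 30023 transcripts of *Aquilegia coerulea* that were quantified in floral buds of 4 developmental stages, and they were chosen by identifier. *AqWUS* is the published locus of the *WUSCHEL* homolog, and *AqUTL1* was given as a locus of its own. Both were above the filter on low values, which kept 20477 genes. All buds came from wild-type plants of the cultivar 'Kiragami', were axillary, and had 3 sepals removed before RNA extraction. Stamen primordia were still forming around a rounded meristem at s1. By s2 this phase was over but carpel formation had not begun, at s3 the carpel rims had risen around remaining apical cells, and at s4 the carpels had used up the apex. Each stage had 8 libraries, made from 2 buds of 2 plants at s1, s2 and s3 and from 1 bud at s4. The buds came from fewer plants than there were buds, so that libraries share plants in a way the labels do not give, and all tests below treat libraries as independent. Library totals were between 21502103 and 31647297 estimated counts.

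*WUSCHEL* encodes a homeodomain transcription factor. In *Arabidopsis thaliana* it is expressed in the organizing center of shoot and floral meristems and keeps the overlying stem cells undifferentiated, while secreted CLAVATA3 peptide and its receptors restrict it. In the floral meristem (FM) of that species its expression ends as the carpels form, which makes the flower determinate. The sources used here spell out no role for *AqUTL1*, so it is described by its values only. The comparison of stages asks how the levels of both genes changed from primordium initiation to the end of organogenesis. RNA was extracted from whole dissected buds, so fewer expressing cells and less RNA per cell cannot be told apart for any gene below, and no value shows where in the bud a gene was expressed.

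Marker genes were set beside the labels of tissue and stage. Most of these genes were named by the study because they changed in these samples, so their direction is no independent check of the labels. All 4 meristem markers (*AqSTM1*, *AqSTM2*, *AqUFO1* and *LFY*) were above 0 in all 32 libraries, and their summed level was 1116 to 1663 TPM (relative abundance, scaled to transcript length and library) at s1 and 889 to 1229 TPM at s2. It was 529 to 942 TPM at s3, and 213 to 459 TPM in s4 buds. Most of this sum was *LFY*, with a mean of 1077 TPM at s1 and 312 TPM at s4. The carpel marker *AqCRC* was at 0.958 to 27.5 TPM at s1 and at 24.6 to 44.8 TPM at s2. The anther marker *EXS* was at 2.88 to 6.32 TPM at s1 and 12.6 to 50.7 TPM at s4. The 3 genes of stomatal development (*AqMUTE*, *AqEPF1* and *STOMAGEN*) were together at 3.61 to 13.9 TPM at s1 and 18.1 to 48.0 TPM at s4. The largest part at s4 was *STOMAGEN*, with a mean of 22.1 TPM, beside 7.15 TPM for *AqMUTE* and 7.10 TPM for *AqEPF1*. The summed level of the meristem markers was thus lower in later buds. The mean level of the organ markers was higher at s4 than at s1, but not at each step. *AqCRC* had means of 37.3, 31.6 and 30.5 TPM at s2, s3 and s4, and *EXS* of 4.94 TPM at s1 and 4.37 TPM at s2. The part of these markers in the results for *AqWUS* and *AqUTL1* was not tested. A single library, s4 replicate 4, stood apart. Its median correlation with the other libraries of its stage was 0.891, against at least 0.963 for each of the other 31 libraries, and results that rest on it are given with and without it.

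Both genes had their highest mean level at s1, and *AqUTL1* spanned a narrower range than *AqWUS*. At s1 the level of *AqWUS* was 14.04 TPM in the lowest library, 22.6 in the median and 30.3 in the highest. At s2 the corresponding values were 5.31, 9.24 and 17.0 TPM, and at s3 they were 3.19, 7.46 and 10.2 TPM. At s4 the highest library was at 11.6 TPM and the median at 7.13, but the lowest, s4 replicate 4, was at 0.118 TPM, while the next was at 3.34. No s3 or s4 library reached the lowest s1 library, and a single s2 library (17.0 TPM) did. Over the 8 libraries of a stage, the mean level of *AqWUS* (± SD) was 21.4 ± 5.51 TPM for s1, 10.04 ± 3.51 for s2, 7.27 ± 2.61 for s3 and 6.64 ± 3.76 for s4, or 7.58 ± 2.89 at s4 without replicate 4 (n = 7).

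*AqUTL1* was at 18.7 TPM in the lowest, 23.1 in the median and 28.5 in the highest s1 library. At s2 it was at 9.62, 19.3 and 27.7 TPM, at s3 at 8.48, 15.2 and 19.0 TPM, and at s4 at 7.24, 16.6 and 21.3 TPM. The lowest s4 value was again that of replicate 4, and the other s4 libraries started at 13.1 TPM. In contrast to *AqWUS*, the ranges of all 4 stages overlapped. Its mean (± SD, n = 8) was 23.5 ± 3.88 TPM for s1, 18.5 ± 5.30 for s2, 14.8 ± 3.19 for s3 and 16.4 ± 4.84 for s4, with 17.7 ± 3.38 when replicate 4 of s4 was left out (n = 7).

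**Figure D1:**
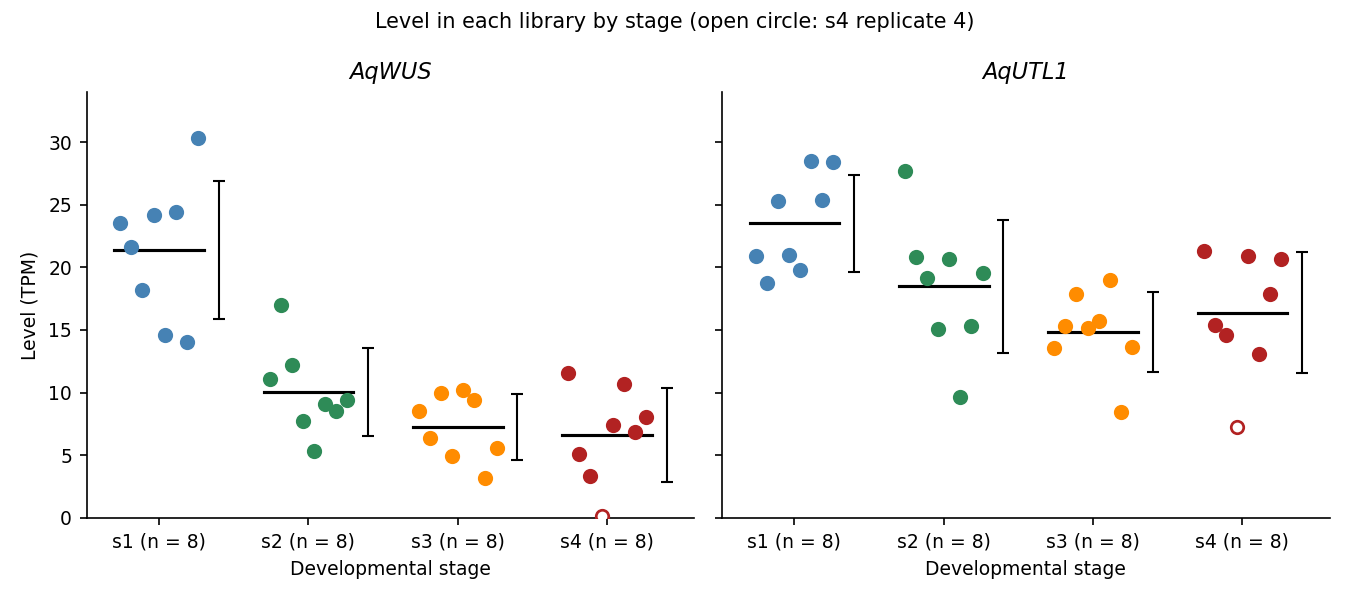
Level of *AqWUS* (left) and *AqUTL1* (right) in TPM (y axis) in each library of s1 to s4 (x axis), with the mean as a line, the SD as an error bar, and s4 replicate 4 as an open circle. All *AqWUS* points of s3 and s4 lie under the lowest s1 point at 14.04 TPM, while the *AqUTL1* points of every stage overlap with those of s1.

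Except for *AqWUS* in s4 replicate 4, with 3 estimated counts, these levels rested on many reads. The estimated counts of *AqWUS* were 304 to 651 per library for s1, 123 to 367 for s2, 67 to 238 for s3 and 3 to 292 for s4, and those of *AqUTL1* were between 253 and 918 in all libraries. Both genes had whole-number counts in 32 of 32 libraries, so that none of their reads were divided with another transcript, although 22.4 to 24.1% of transcripts per library had counts that were not whole. The spread among libraries of a stage was larger than counting alone gives. For *AqWUS* the coefficient of variation of TPM was 25.8% for s1, 35.0% for s2, 36.0% for s3 and 56.6% for s4 (38.2% without replicate 4), where the mean counts alone would give 4.60 to 8.03%. For *AqUTL1* it was between 16.5 and 29.6%, where counting would give 3.68 to 4.65%. The biological coefficient of variation that edgeR estimated per gene over all 32 libraries was 50.5% for *AqWUS* and 25.2% for *AqUTL1*, beside 31.2% in common over all genes. These estimates include s4 replicate 4.

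Differential expression (DE) between stages was tested with edgeR on the rounded counts of all 32 libraries. A gene counted as DE when its adjusted *p* value was under 0.05 and its log2 fold change, given as later over earlier stage, was 1 or more in size. *AqWUS* fell from s1 to s3 (log2 fold change -1.54, edgeR adjusted *p* 0.0062, SE 0.37), which left 34.5% of the s1 level, and all 8 s3 libraries were below all 8 s1 libraries. It was likewise lower in s4 than in s1 buds (-1.62, edgeR adjusted *p* 0.0013, SE 0.37), leaving 32.4% of the s1 level, again with 8 of 8 libraries below. As background, 3.76% of the 20477 genes tested were DE from s1 to s3 and 9.24% from s1 to s4, and 0.606% and 1.94% were DE and lower at the later stage. All libraries of the later stage lay below all of s1 in 0.986% and 2.16% of genes. Over all genes tested the median log2 fold change was 0.01 in both comparisons. The s1 to s4 change of *AqWUS* was -1.44 without s4 replicate 4 and remained DE (edgeR adjusted *p* 7.3e-05).

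From s1 to s2, the log2 fold change of *AqWUS* was -1.02 (edgeR adjusted *p* 0.27, SE 0.36), with 7 of 8 s2 libraries below all of s1, and the gene was not DE. This call rested on a library of neither stage. With s4 replicate 4 left out, the fold change was -1.02 with an SE of 0.24 and an edgeR adjusted *p* of 0.023, so that *AqWUS* was DE, and with only the 16 libraries of s1 and s2 the adjusted *p* was 0.025 (fold change -1.03, SE 0.21). In the fit of all 32 libraries 0.596% of genes (122) were DE in this comparison, 0.107% lower and 0.488% higher at s2. With only the 16 libraries, 78 genes were DE. Among s2, s3 and s4 no difference in *AqWUS* passed the test. Its log2 fold change was -0.52 from s2 to s3 (edgeR adjusted *p* 0.95), -0.61 from s2 to s4 (0.28) and -0.09 from s3 to s4 (0.92), each with an SE of 0.37, and these levels did not differ beyond their spread. The shares of all genes that were DE in these comparisons were 0.313%, 5% and 1.19%. Without s4 replicate 4, the s3 to s4 value turned to 0.10 (edgeR adjusted *p* 0.81, SE 0.25).

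*AqUTL1* was not DE in any of the 6 comparisons. The largest change was from s1 to s3, with a value of -0.63 on the log2 scale (edgeR adjusted *p* 0.023, SE 0.18) that left 64.5% of the s1 level. This change passed the adjusted *p* but not the fold change threshold, and it missed the former without s1 replicate 6, s1 replicate 8 or s3 replicate 7 (edgeR adjusted *p* 0.052, 0.053 and 0.051). In all, 2.41% of genes passed that *p* in this direction at any fold change. Of the s3 libraries, 7 of 8 were below all of s1. Between s1 and s4 the value was -0.44 (edgeR adjusted *p* 0.068, SE 0.18, 5 of 8 below), and from s1 to s2 it was -0.32 (edgeR adjusted *p* 0.74, SE 0.18, 3 of 8 below). From s2 to s3, s2 to s4 and s3 to s4 it was -0.31, -0.12 and 0.19, with edgeR adjusted *p* values of 0.82, 0.68 and 0.59. A single test of any difference among the 4 stages gave F = 9.27 for *AqWUS* (edgeR adjusted *p* 0.0020) and F = 4.47 for *AqUTL1* (edgeR adjusted *p* 0.053). This F test was passed by 18.6% of genes. Without s4 replicate 4 *AqUTL1* passed it (F = 5.53, edgeR adjusted *p* 0.021), and F for *AqWUS* was 18.2 (edgeR adjusted *p* 1.7e-05).

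The level of *AqWUS* relative to *AqUTL1* was then compared within each library, since both are expressed per length on the TPM scale and come from the same buds. At s1 the ratio of TPM ranged from 0.554 to 1.15 with a median of 0.961, and *AqWUS* was the higher of the pair in 4 of 8 libraries. In none of the 24 libraries of s2, s3 and s4 was *AqWUS* the higher gene. The ratio was between 0.258 and 0.944 at s2 (median 0.533), between 0.324 and 0.647 at s3 (median 0.456), and between 0.0163 and 0.817 at s4 (median 0.369). Replicate 4 gave the lowest s4 ratio, and the others started at 0.229. On the log2 scale the SD was 0.36 at s3 and 1.44 at s4, but 0.57 at s4 without replicate 4, close to the 0.58 at s2.

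On the log2 scale, with 0.1 TPM added to both levels, the mean ratio (± SD, n = 8) was -0.16 ± 0.39 for s1, -0.89 ± 0.58 for s2, -1.08 ± 0.36 for s3 and -1.76 ± 1.44 for s4, or -1.29 ± 0.57 for s4 without replicate 4 (n = 7). The ratio was lower at s2 than at s1 by 0.73 in its mean (two-sided exact permutation *p* 0.011, 0.021 when adjusted over the 6 pairs of stages), with 4 of 8 libraries below all of s1. It was lower by 0.92 at s3 (exact permutation *p* 0.00078, adjusted 0.0028, 5 of 8 below) and by 1.60 at s4 (exact permutation *p* 0.00093, adjusted 0.0028, 7 of 8 below). The s4 difference was -1.13 without replicate 4 (exact permutation, adjusted *p* 0.0047). By these tests *AqWUS* changed from s1 by a larger factor than *AqUTL1* in each of these comparisons. With same-numbered replicates treated as pairs, the change from s1 to s2 did not pass (exact sign-flip permutation, adjusted *p* 0.063). Those from s1 to s3 and from s1 to s4 did (0.023 for both). Between later stages the mean ratio differed by -0.19 from s2 to s3, -0.87 from s2 to s4 and -0.68 from s3 to s4, and none of these passed the exact permutation test (adjusted *p* 0.44, 0.15 and 0.24). The values from s2 and s3 to s4 depended on single libraries, being -0.40 and -0.21 without s4 replicate 4, and -1.08 and -0.89 without s4 replicate 6, with adjusted exact permutation *p* values of 0.30 and 0.44 in the former case and 0.035 for both in the latter.

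**Figure D2:**
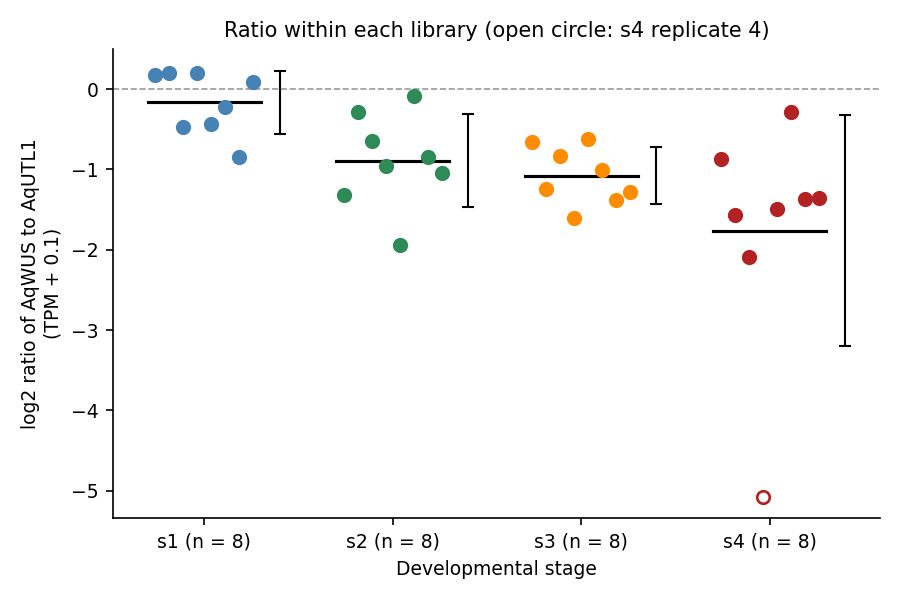
log2 ratio of *AqWUS* to *AqUTL1* (TPM with 0.1 added, y axis) in each library by stage (x axis), with the mean as a line, the SD as an error bar, and a dashed line where both levels are equal. Points lie on both sides of the dashed line at s1 only, and s4 replicate 4 (open circle) lies at -5.07.

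Within a stage, no correlation between the levels of the pair passed the test after adjustment. Over the 8 libraries of a stage, Pearson's r of log2(TPM + 0.1) was 0.27 for s1, 0.23 for s2, 0.82 for s3 and 0.88 for s4. The exact permutation *p* values were 0.50, 0.59, 0.013 and 0.027, and 0.59, 0.59, 0.053 and 0.054 when adjusted over the 4 stages, so none passed. Spearman's rho was 0.43, 0.43, 0.74 and 0.62, with exact permutation *p* values of 0.30, 0.30, 0.046 and 0.11, and 0.30, 0.30, 0.18 and 0.23 when adjusted. With the 2 libraries farthest from the median of *AqUTL1* left out, r was -0.42, 0.27, 0.47 and 0.17, so that the higher values at s3 and s4 did not hold without those libraries, whose omission also narrows the range of *AqUTL1*. At s4 r was 0.36 without replicate 4 alone (n = 7, exact permutation *p* 0.42).

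**Figure D3:**
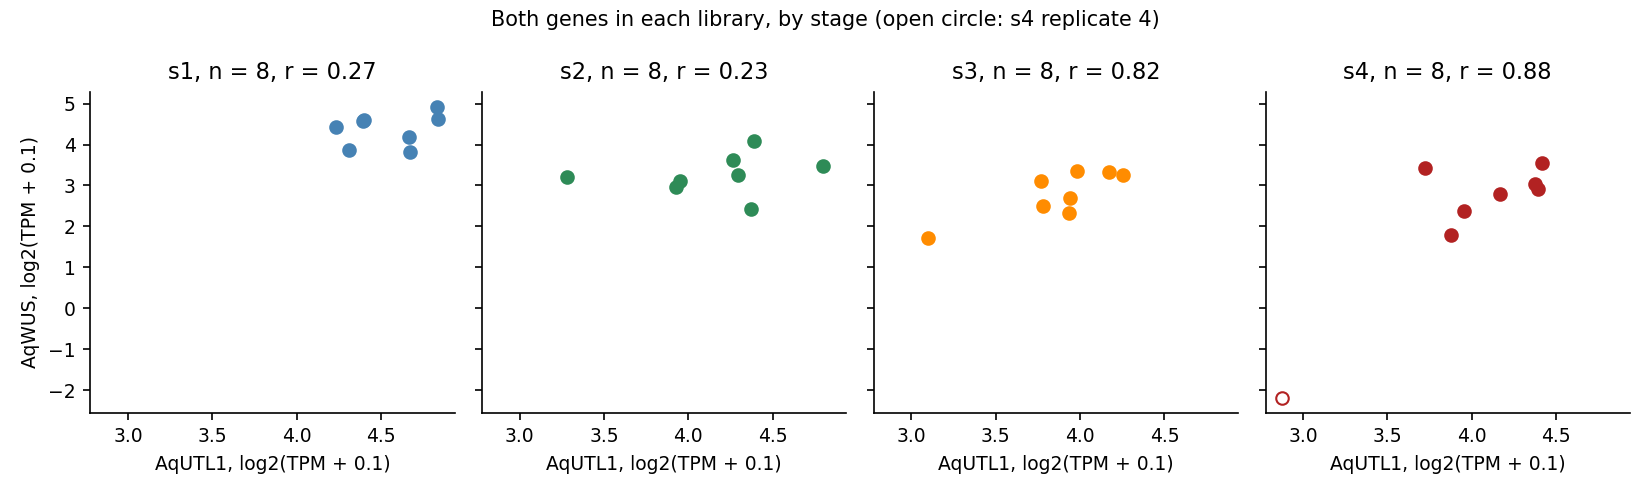
Level of *AqWUS* (y axis) against *AqUTL1* (x axis), both as log2(TPM + 0.1), with 1 point per library and 1 panel per stage. The points of s1 and s2 form no line (r = 0.27 and 0.23), and at s4 the open circle of replicate 4 lies far below and to the left of the other 7.

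In s4 replicate 4, *AqWUS* had 3 estimated counts (95% exact Poisson interval 0.62 to 8.77), or 0.118 TPM (0.0244 to 0.345). These intervals cover counting error only. The median of the other s4 libraries was 7.39 TPM, 62.6-fold higher (21.4 to 303), so the gap was larger than counting error. *AqUTL1*, at 7.24 TPM in this library and a median of 17.9 TPM in the others, was 2.47-fold lower. Over the 20477 genes tested, the log2 ratio of this library to the median of the other s4 libraries was lower than that of *AqWUS* (-5.10) in 51 genes, or 0.249%, and lower than that of *AqUTL1* (-1.29) in 13.8%. This bud was not low in every meristem gene. The summed level of the 4 meristem markers, 275 TPM, lay within the 213 to 459 TPM of the other s4 libraries, and most of that sum was *LFY*. Of the 4 markers, *AqSTM1* at 26.8 TPM (23.3 to 42.6) and *LFY* at 243 TPM (181 to 402) were within the range of the others, while *AqSTM2* at 3.65 TPM (4.27 to 8.11) and *AqUFO1* at 1.59 TPM (2.43 to 7.91) were below it. The carpel marker *AqCRC* was at 11.6 TPM against 22.8 to 40.6, the summed stomatal markers were at 18.1 TPM against 30.1 to 48.0, and the anther marker *EXS* was at 17.3 TPM, within 12.6 to 50.7. Among the stomatal markers, only *STOMAGEN* was below the other s4 libraries, at 8.27 TPM (20.04 to 27.71). *AqMUTE* at 5.21 TPM (3.49 to 9.89) and *AqEPF1* at 4.64 TPM (3.66 to 10.73) were within their range.

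Among the 27 listed genes described next, 14 were below all other s4 libraries in replicate 4, 3 were above and 10 lay between, beside 38.3% of all tested genes below and 23.8% above. *SUP*, a zinc finger gene that in *A. thaliana* sets the boundary of stamens and carpels, was at 0.349 TPM (1.24 to 2.47 in the others). *CKX5*, which encodes a cytokinin-degrading oxidase, was at 0.0602 TPM (0.845 to 3.46). *PNY*, a BEL homeobox gene whose product partners STM, was on the contrary higher, at 27.2 TPM (7.09 to 11.9). Whether the bud, its stage or its library set these values was not tested.

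**Figure D4:**
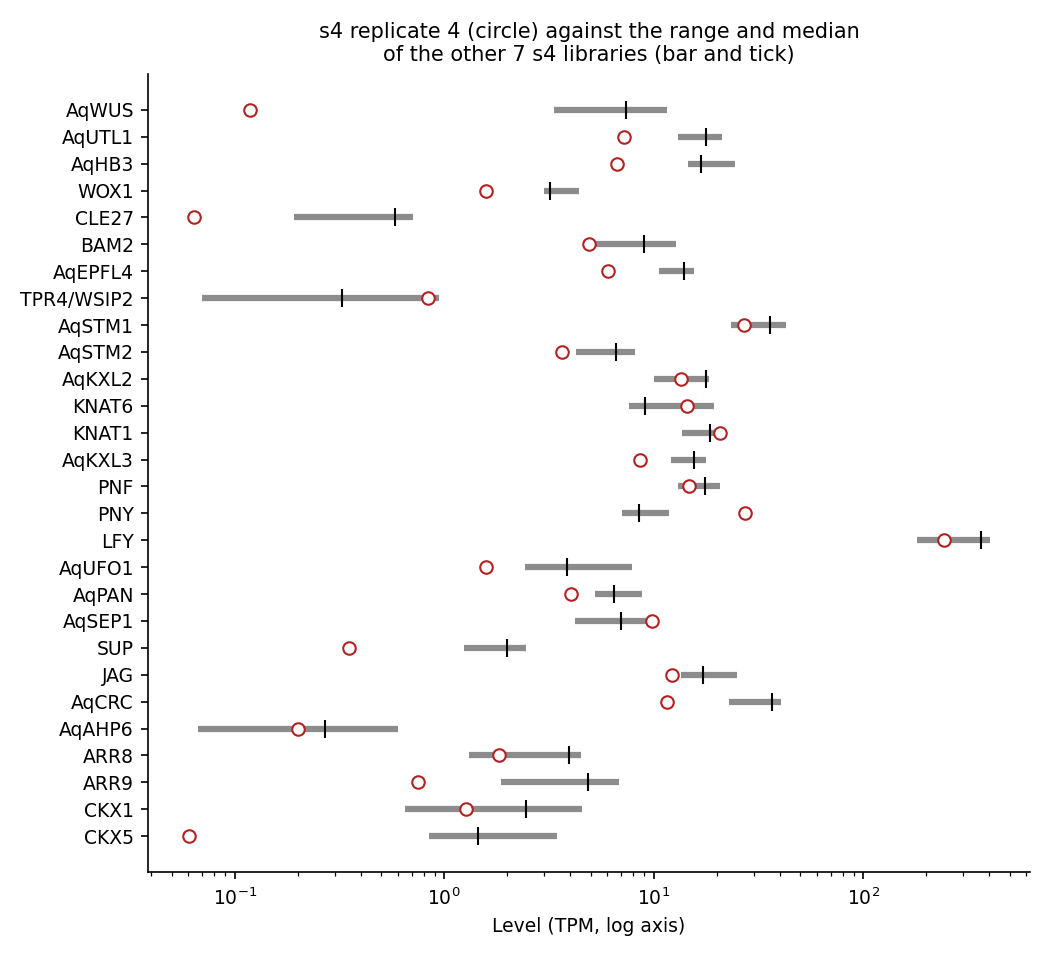
Level in TPM (x axis, log scale) of *AqWUS*, *AqUTL1* and the listed genes (y axis) in s4 replicate 4 (open circle), against the range (bar) and median (tick) of the other 7 s4 libraries. *AqWUS* lies farthest to the left of its bar, *AqSTM1* and *LFY* lie within theirs, *AqSTM2* and *AqUFO1* lie to the left of theirs, and *WOX2*, at 0 in replicate 4, is left out.

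Other genes of the *WUSCHEL* pathway and of the meristem were set beside the pair. Nearly all were listed by the study because they changed in these samples, so that their counts are not independent evidence of a direction. The 3 homologs of other WUSCHEL-family homeobox genes (median log2 fold change from s1 to s4 -1.64, 0.01 over all genes) were DE and lower at s4 than at s1 in 3 of 3 cases, beside 1.94% of all genes. *AqHB3* was at 56.1 ± 6.65 TPM at s1 and 17.1 ± 5.50 TPM at s4 (SD, n = 8), and the log2 change was -1.64 (edgeR adjusted *p* 6.1e-10, SE 0.15). *WOX1* was at 7.15 ± 1.02 and 3.19 ± 0.818 TPM, and *WOX2* at 1.05 ± 0.676 and 0.0589 ± 0.137 TPM (SD, n = 8). *AqHB3* and *WOX1* were also lower at s4 than at s3 by the adjusted *p*, at -0.59 and -0.68 (edgeR adjusted *p* 0.018 and 0.0046), although neither reached the fold change threshold. Their difference from *AqWUS* in this interval was not tested.

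In *A. thaliana*, secreted peptides and their receptors act on *WUS* expression. From s1 to s4, 2 of the 4 listed homologs fell, 1 rose and 1 was not DE (median -1.11), where 1.94% of all genes fell and 7.31% rose. *CLE27*, of the family of CLAVATA3-like peptides, was at 3.33 ± 0.813 TPM at s1 and 0.434 ± 0.234 TPM at s4 (SD, n = 8) and fell by 2.86 log2 units (edgeR adjusted *p* 4.2e-08, SE 0.32). *AqEPFL4*, encoding a secreted peptide of the epidermal patterning factor family, fell from 39.4 ± 4.80 to 12.8 ± 3.17 TPM (log2 fold change -1.54, edgeR adjusted *p* 7.3e-12, SE 0.11). *BAM2*, a receptor kinase related to CLAVATA1, rose from 3.33 ± 0.590 to 8.97 ± 2.86 TPM (1.52, edgeR adjusted *p* 1.5e-06, SE 0.21). The TOPLESS-related corepressor *TPR4*, also named *WSIP2*, had a log2 fold change of -0.69 (edgeR adjusted *p* 0.17) and was under 1.13 TPM in every library.

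KNOX homeobox genes such as *SHOOT MERISTEMLESS* (*STM*) keep meristem cells from differentiating in *A. thaliana*, and BEL proteins act as their partners. All 8 listed KNOX and BEL genes were DE and lower at s4 than at s1 (median -1.77), beside 1.94% of all genes. At s3, 4 of 8 were DE and lower than at s1 (0.606% of all genes), and from s3 to s4, 2 of 8 were DE and lower, beside 0.308% of all genes. Without s4 replicate 4 the latter count was 4 of 8, with *KNAT6* and *PNY* added. That fit called more genes in all, and its share of genes DE and lower was not taken. *AqSTM1* had mean levels (± SD, n = 8) of 142 ± 24.1, 89.3 ± 12.9, 61.6 ± 11.3 and 33.0 ± 6.57 TPM from the first to the last stage, and *AqSTM2* of 40.7 ± 8.68, 20.4 ± 2.90, 13.2 ± 2.80 and 6.03 ± 1.67 TPM. From s3 to s4 the log2 fold changes were -0.85 for *AqSTM1* (edgeR adjusted *p* 3e-05, SE 0.12) and -1.08 for *AqSTM2* (edgeR adjusted *p* 2.7e-05, SE 0.15), with all 8 s4 libraries below all of s3, as in 0.332% of all genes. *AqWUS* had a value of -0.09 in this comparison.

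Whether this gap between *AqWUS* and the *STM* homologs exceeded the spread of libraries was tested on their log2 ratio within a library, a comparison chosen after the values were seen. With all libraries, no ratio to *AqSTM1* or *AqSTM2* differed between any pair of stages (12 comparisons, exact permutation, smallest adjusted *p* 0.93). From s3 to s4 the ratio changed by 0.33 against *AqSTM1* and 0.56 against *AqSTM2*. Without s4 replicate 4 these changes were 0.92 and 1.10, in favor of *AqWUS*, with exact permutation *p* values of 0.042 and 0.019 and adjusted values of 0.10 and 0.075. The lowest adjusted value was 0.050 and was just above the threshold, for the ratio to *AqSTM2* from s2 to s4 (1.26) and from s1 to s4 (1.12).

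Of the 7 listed genes of FM identity and termination, 6 fell from s1 to s4 (median -2.02), where 1.94% of all genes were DE and lower. *AqKNU* and *AqSYD*, which the study examined for FM termination, were not on this list, so the count does not describe termination genes as a class. *LFY*, which specifies floral identity, was at 1077 ± 124 TPM at s1 and 312 ± 82.3 TPM at s4 (SD, n = 8), and *AqUFO1*, the homolog of an F-box partner of LFY, at 79.3 ± 20.1 and 4.25 ± 2.13 TPM. *AqUFO1* fell by 4.15 (edgeR adjusted *p* 3.2e-14, SE 0.24) and was DE in 5 of the 6 comparisons, with the s1 to s2 change at -0.98. *AqPAN*, whose counterpart activates *AGAMOUS*, *AqSEP1*, *SUP* and *JAG* were the other 4 that fell. *AqCRC*, the homolog of a YABBY gene that promotes carpel development and meristem termination, was the exception among the 7. It rose by 1.72 from s1 to s2 (edgeR adjusted *p* 0.016, SE 0.38) and by 1.47 from s1 to s4 (edgeR adjusted *p* 0.0042, SE 0.38). For *AqWUS* the s1 to s2 value was -1.02, and neither gene differed between s3 and s4 beyond the spread.

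Cytokinin promotes *WUS* expression in *A. thaliana*. Of the 5 listed genes of this hormone, 2 fell and 2 rose from s1 to s4 (median -0.86), beside 1.94% and 7.31% of all genes. *AqAHP6*, the homolog of an inhibitor of cytokinin signaling, fell from 9.36 ± 2.20 to 0.295 ± 0.176 TPM (SD, n = 8), and its log2 fold change was -4.90 (edgeR adjusted *p* 3.2e-14, SE 0.28). *CKX1*, which encodes another cytokinin oxidase, fell by 1.75 (edgeR adjusted *p* 1.5e-05, SE 0.28). The response regulator gene *ARR8* rose by 2.18 (edgeR adjusted *p* 0.00015, SE 0.41), and *CKX5* by 2.68 (edgeR adjusted *p* 0.00096, SE 0.59). *ARR9* had a value of -0.86 (edgeR adjusted *p* 0.036) and was not DE.

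**Figure D5:**
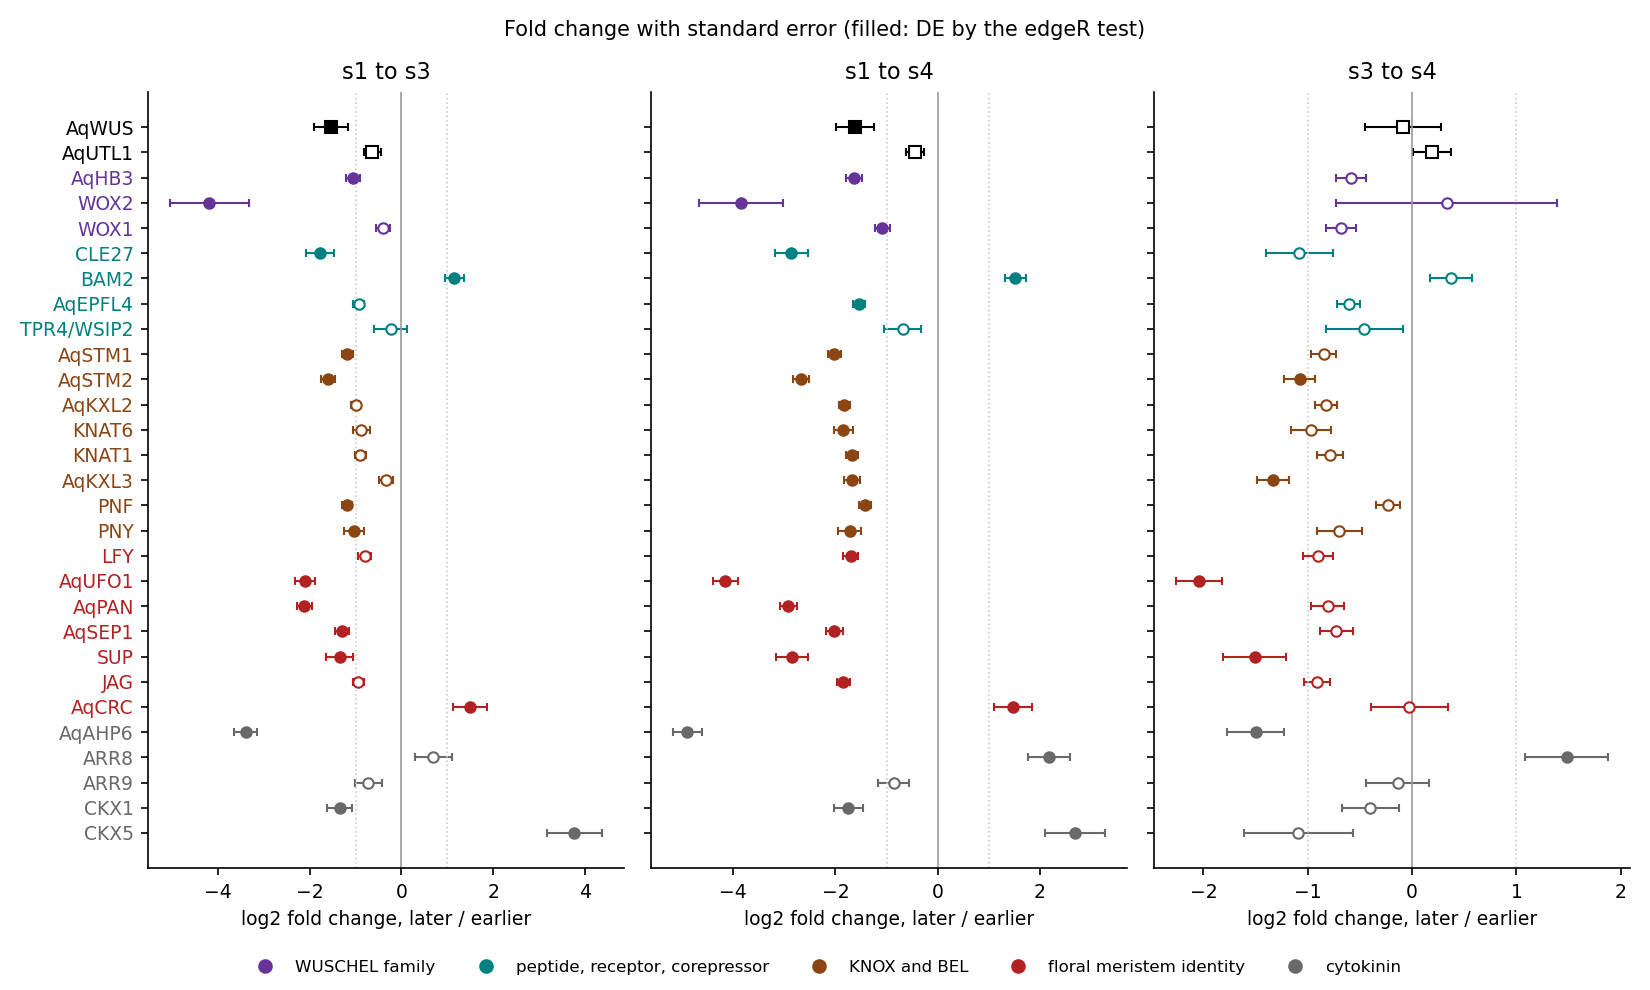
log2 fold change (x axis, later over earlier stage, with the standard error as a bar and a separate scale in each panel) of *AqWUS*, *AqUTL1* and the listed genes (y axis, colored by list) for s1 to s3, s1 to s4 and s3 to s4. *AqWUS* (filled square, DE) lies among the meristem genes in the first and second panels at -1.54 and -1.62 and close to 0 in the last, at -0.09, where *AqSTM2* and *AqUFO1* are DE and lower.

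Over the 32 libraries the log2 CPM (counts scaled to library size) of *AqWUS* and *AqUTL1* had a correlation of 0.72, a description in which the libraries share their stage and preparation. *AqUTL1* ranked 475th of 20476 genes by likeness to *AqWUS*, and *AqWUS* 316th by likeness to *AqUTL1*. Without s4 replicate 4 the correlation was 0.65 and the ranks were 246 and 322. After subtraction of the stage means over all libraries it was 0.64, with ranks of 2573 and 2640. This value includes s4 replicate 4, in which both genes were low, and was not taken without it. The 5 genes most like *AqWUS* had correlations of 0.90 to 0.91, led by *Aqcoe6G089100* (0.91) and *Aqcoe1G457900* (0.91), a homolog of *FPF1-LIKE PROTEIN 1* with mean levels of 333 TPM at s1 and 131 TPM at s4. The others were *Aqcoe6G207000*, *Aqcoe1G323300* and *Aqcoe6G258000*. This likeness depended on s4 replicate 4, without which these 5 had correlations of 0.72 to 0.79 and ranked 16th to 95th. The lowest correlations were those of *Aqcoe5G400700* (-0.91), *Aqcoe5G406000* (-0.90) and *Aqcoe3G112900* (-0.89), the last of which rose in mean level from 9.81 TPM at s1 to 24.7 TPM at s4. With stage means subtracted, *Aqcoe5G320600*, *Aqcoe6G039500* and *Aqcoe1G400000* were the most like *AqWUS*, with correlations of 0.94, 0.94 and 0.93. These were 0.79, 0.81 and 0.79 when s4 replicate 4 was dropped after the subtraction. The s4 means that were subtracted still included that library, so its effect is not fully removed from the latter values.

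The genes most like *AqUTL1* were less affected by that library. *Aqcoe5G194200* led with a correlation of 0.90 (0.88 without s4 replicate 4) and remained the first both without that library and with stage means subtracted (0.90). It was followed by *Aqcoe5G477900* (0.88), *Aqcoe6G138500* (0.86), *Aqcoe5G296000* (0.85) and *Aqcoe4G302100* (0.85), which ranked 2nd to 10th without s4 replicate 4. The lowest correlations were those of *Aqcoe1G242700* (-0.88), *Aqcoe3G290900* (-0.87) and *Aqcoe7G391000* (-0.87). None of the 5 genes most like *AqWUS* was among the 5 most like *AqUTL1*. Lists of 5 drawn at random from 20476 genes would seldom overlap, so this does not set the pair apart. With stage means subtracted, *Aqcoe1G451200* (0.89) and *Aqcoe7G051600* (0.87) came next to *Aqcoe5G194200*. Among the listed genes, *AqHB3* had the highest correlation with *AqWUS* (0.78) and *PNF* with *AqUTL1* (0.64).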

How the data were processed

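The authors trimmed 150 bp paired reads at a Phred cutoff of 20 and quantified them with kallisto against the *Aquilegia coerulea* 'Goldsmith' v3.1 transcriptome. For each library they deposited estimated counts, which need not be whole, and TPM, which is scaled to transcript length and library. cDNA was made with SMART-Seq v4, and no strand information was used here, so reads of overlapping antisense genes cannot be told apart. Stages and replicate numbers came from the sample labels.

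Estimated counts were rounded and tested with edgeR 4.0.16 (quasi-likelihood, TMM normalization, all 32 libraries, R 4.3.3) over the 20477 genes that exceeded 1 CPM in 1 or more libraries, with Benjamini-Hochberg adjustment. The method was tested on simulated data. These gave all genes the same biological coefficient of variation and set no library apart, so they do not cover the spread of *AqWUS*. DE required an adjusted *p* under 0.05 and a change of 1 or more log2 units. Ratios of TPM (0.1 added) were compared with two-sided exact permutation tests over 12870 arrangements of 16 libraries, and correlations with exact permutation of pairings.

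Members and gene lists were chosen with earlier results of these data known. Genes named were both members, the listed genes and, for each member, the 5 with the highest and 3 with the lowest correlation of log2 CPM (prior count 2), and the 3 with the highest after subtracting stage means. Alternatives were DESeq2 1.42.0, length-scaled TPM counts, RLE factors, other filters, subsets of libraries and a replicate block. Fits added after the data had been seen were the F tests under these settings, the ratios to *STM* homologs, and the list counts, gene counts, correlations and likeness without s4 replicate 4.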

Additional observations from a re-analysis of the deposited data

Results flagged for a closer look

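The log2 ratio of *AqWUS* to *AqUTL1* in s4 replicate 4 was -5.07, far from the other 7 s4 libraries, which lay between -2.09 and -0.29. The gap to the nearest library was 0.623 of the whole range of the stage, above the critical value of 0.526 for 8 samples. Of 12 groups of libraries examined in this way (the level of each gene and their ratio in each stage), this was the single one so marked, and chance marks about 1 in 20 groups.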

How the results depend on the processing

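Over 8 other fits of all or some libraries, *AqWUS* kept its call in 47 of 48 comparisons and *AqUTL1* in 48 of 48. The exception was *AqWUS* from s1 to s2 with the 16 libraries alone (-1.03, DE). In the 32 fits that left out 1 library, *AqWUS* ranged from -1.61 to -1.43 for s1 to s3 and from -1.80 to -1.44 for s1 to s4, DE throughout, from -1.20 to -0.92 for s1 to s2, DE once, and from -0.26 to 0.10 for s3 to s4, where the sign turned without s4 replicate 3 (0.01) or s4 replicate 4 (0.10). *AqUTL1* was never DE, and its F ranged from 3.51 to 5.65, passing in 7 of 32 fits. The ratio of *AqWUS* to *AqUTL1* ranged from -1.08 to -0.40 for s2 to s4 and from -0.89 to -0.21 for s3 to s4, each passing once, and kept its side of the threshold in the 3 comparisons with s1 (-1.81 to -0.58 over these). The labels do not say whether the replicate numbers pair the libraries. Correlations of same-numbered deviations ranged from -0.46 to 0.62, and at most 3 of 8 libraries correlated best with their own number. These values cannot settle whether the libraries were paired. With the replicate block the ratio change from s1 to s2 was -0.73 with an exact sign-flip permutation adjusted *p* of 0.063, and the block changed no other call. The correlation at s1 turned to -0.42 with 2 libraries left out, and the ratio to *AqSTM1* from s1 to s4 from -0.06 to 0.53 without s4 replicate 4. Genes called from s1 to s2 numbered 122, 200 with DESeq2 and 78 with the 16 libraries, from s2 to s3 64 and 110 with DESeq2, and from s3 to s4 243, 157 with the 16 libraries and 460 without s4 replicate 4. Without that library, 1 rather than 2 WUSCHEL-family genes were DE from s2 to s4 (*AqHB3* at -0.95), *BAM2* was DE and higher (1 rather than 0), and 4 rather than 2 KNOX and BEL genes were DE from s3 to s4. Replicates of s1 to s3 pool 2 buds and those of s4 hold 1, so the spread at s4 and at the other stages is not of the same kind. The 3 counts of *AqWUS* in s4 replicate 4 limit any fold against that library.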
